A study of Mus musculus with 8 samples.

Results

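The genes described here store, import and export iron in macrophages: the ferritin chains *Ftl1* and *Fth1*, the ferritin receptor *Ncoa4*, the importers and their reductase *Tfrc*, *Steap3*, *Slc11a1* and *Slc11a2*, the exporter *Slc40a1*, and the iron sensors *Aco1* and *Ireb2*. They were chosen by symbol, and all 10 were found among the 53819 genes of the count table and passed the filter on low counts. RNA was sequenced from BMDM (bone marrow-derived macrophages) of 4 female BALB/cJ mice aged 8 weeks, with a culture in vehicle (DMSO) and a culture in 2.5 µM bilirubin from each mouse, 8 libraries in all. Both groups had first been differentiated from marrow over 5 days in M-CSF (the macrophage growth factor) at 25 ng/mL, and treatment lasted 48 h. The study asked how heme metabolites released by breast tumors act on macrophages, and bilirubin is an end product of heme breakdown. BALB/c mice carry a loss-of-function allele of *Slc11a1*, so its transcript is measured here in cells that lack the working protein.

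Macrophages recover iron from engulfed red cells. Heme oxygenase opens the heme ring and releases iron, which is either stored inside the ferritin shell or sent out through ferroportin, the product of *Slc40a1* and the known iron exporter of mammalian cells. Iron also enters with transferrin through the transferrin receptor (*Tfrc*), is reduced in the endosome by *Steap3* and crosses the endosomal membrane through DMT1 (*Slc11a2*), while NRAMP1 (*Slc11a1*) moves metal ions out of the phagosome. When iron is short, the iron regulatory proteins IRP1 (*Aco1*) and IRP2 (*Ireb2*) bind a hairpin in the mRNA, the iron-responsive element (IRE). Binding in the 5′ UTR blocks translation, whereas binding in the 3′ UTR protects the mRNA from decay, and *Ncoa4* delivers ferritin to the lysosome so that its iron is released.

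The hairpins are shown because they divide the genes by the UTR that holds a matching sequence. They were found by searching the UTRs of the GENCODE annotation (GRCm39) on the sense strand for CNNNNNCAGTGN with at least 4 of the 5 bases after the first C able to pair (A-T, G-C or G-T) with the 5 bases after the loop. Each sequence has 29 bases and is written 5′ to 3′ as DNA, with the 6-base loop in capitals. Among transcripts in the deposited files, the genes with a match in the 5′ UTR were both ferritin chains and ferroportin.
*Fth1*, chr19:9960096-9960124, plus strand: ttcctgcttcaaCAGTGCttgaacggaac
*Ftl1*, chr7:45109203-45109231, minus strand: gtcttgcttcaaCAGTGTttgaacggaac
*Slc40a1*, chr1:45964625-45964653, minus strand: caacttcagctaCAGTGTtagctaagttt
In the 3′ UTR, *Slc11a2* had 1 match, with 4 paired bases, and *Tfrc* had 4, in the order of the mRNA.
*Slc11a2*, chr15:100293034-100293062, minus strand: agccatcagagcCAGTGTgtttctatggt
*Tfrc*, chr16:32450037-32450065, plus strand: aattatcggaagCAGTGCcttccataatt
*Tfrc*, chr16:32450416-32450444, plus strand: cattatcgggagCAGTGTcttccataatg
*Tfrc*, chr16:32450481-32450509, plus strand: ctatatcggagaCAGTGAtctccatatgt
*Tfrc*, chr16:32450528-32450556, plus strand: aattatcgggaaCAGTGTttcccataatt
The pattern is found in 0.806% of the 5′ UTRs and 4.16% of the 3′ UTRs of 21593 coding genes, UTRs of every length included, so a match describes the letters and not a binding site. No deposited transcript of the other 5 genes had a match in its annotated UTRs. *Aco1* had a 5′ UTR match with 4 paired bases in 1 annotated transcript that is not in the deposited table, and it is not counted among the matches.

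Levels were compared between genes in TPM, which is scaled for transcript length. Ferritin dominated: *Ftl1* had the highest TPM of all genes in each of the 4 vehicle libraries and *Fth1* the next, and in bilirubin libraries they again held the top 2 ranks in either order. In vehicle the level was 43040 ± 738 TPM for *Ftl1* and 39866 ± 2960 for *Fth1* (SD, n = 4 mice, as throughout), and both chains together made up between 7.93 and 8.61% of all TPM. *Slc11a1* followed at 544 ± 13.9 TPM, *Tfrc* at 178 ± 12.96, *Ncoa4* at 77.2 ± 3.87 and *Slc40a1* at 54.2 ± 6.45. *Aco1* stood at 32.6 ± 1.44 TPM, *Slc11a2* at 24.9 ± 5.05, *Steap3* at 18.3 ± 0.680 and *Ireb2* at 17.7 ± 0.601. The vehicle ranges of *Aco1* and *Slc11a2* overlapped only through mouse 3, where *Slc11a2* stood at 32.4 TPM. In mice 1, 2 and 4 it stood at 22.7, 22.8 and 21.6 TPM, and the lowest *Aco1* value was 31.3. A minor *Slc11a2* transcript, ENSMUST00000154331, held up to 18.8% of the gene's TPM in a vehicle library, with at most 1.93% of its counts. Ranges of vehicle libraries also overlapped for the neighbours *Ftl1* and *Fth1* and for *Steap3* and *Ireb2*. These 2 pairs of neighbours did not differ beyond the spread between libraries. Within each vehicle library, however, *Ftl1* stood above *Fth1* and *Steap3* above *Ireb2* in 4 of 4.

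Bilirubin was compared with vehicle by edgeR's quasi-likelihood test with the mouse in the model, and p-values were Benjamini-Hochberg adjusted over 13722 genes (threshold 0.05). The 10 genes included 3 that rose (*Slc11a2*, *Ncoa4* and *Slc11a1*) and 1 that fell (*Slc40a1*), while 7.53% of all tested genes passed (4.49% higher, 3.04% lower). The median log2 fold change of the 10 was 0.10, against -0.0018 for all tested genes. For the same 4 genes the vehicle and bilirubin libraries did not overlap in CPM (counts scaled to library size with edgeR's TMM factors), as was the case for 10.6% of tested genes. All values below are CPM and all changes are log2 fold changes of bilirubin over vehicle, unless TPM is named. These are bulk libraries, in which fewer cells of a type and less RNA per cell cannot be told apart.

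**Figure D1:**
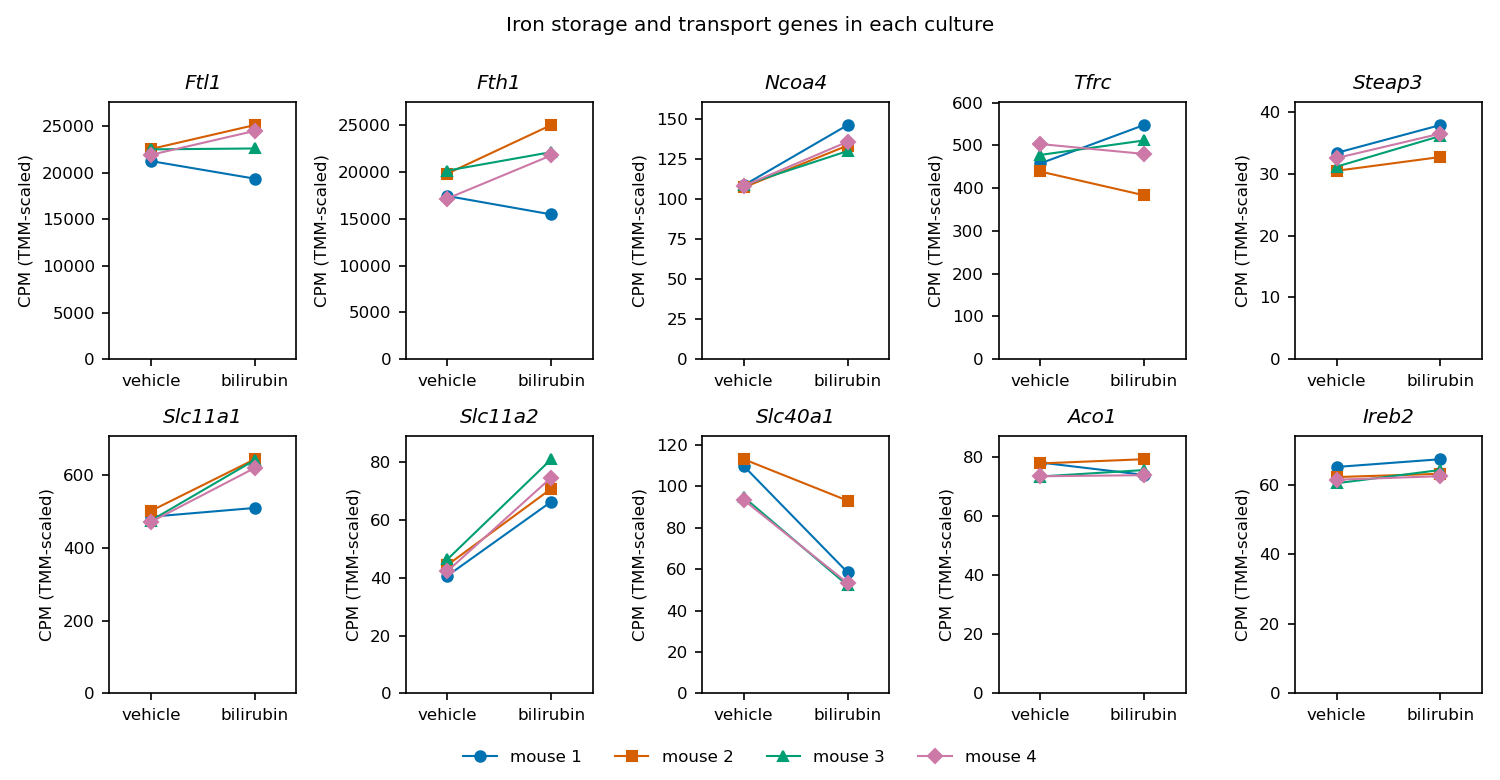
Expression of the 10 iron genes in CPM (y axis, from 0) in the vehicle and bilirubin cultures, with a line and colour for each of 4 mice. *Slc11a2* and *Ncoa4* lay higher and *Slc40a1* lower with bilirubin in each mouse, with mouse 2 at 93.1 CPM of *Slc40a1* and the others between 52.2 and 58.4.

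Among the 10 genes, the export gene *Slc40a1* fell, while the transporter genes *Slc11a2* and *Slc11a1* rose. Outside the 10, the metal importer gene *Slc39a8* also fell (-0.24, edgeR adjusted p = 0.0298). *Slc40a1* (ENSMUSG00000025993, chr1:45947211-45965683), which encodes ferroportin, stood at 110, 113, 94.8 and 93.4 CPM in the vehicle cultures of mice 1 to 4. In bilirubin it stood at 58.4, 93.1, 52.2 and 53.3 CPM. Each mouse had less in bilirubin than in vehicle, and mouse 2 kept most of its level, so that its bilirubin value lay just under the lowest vehicle value. The mean went from 103 ± 10.1 to 64.2 ± 19.4 CPM, a log2 fold change of -0.71 (SE 0.10, 0.61-fold, edgeR adjusted p = 0.00296). By mouse the log2 change was -0.91, -0.28, -0.86 and -0.81. The call held in all 12 alternative analyses, with log2 fold changes between -0.86 and -0.65 and a highest adjusted p of 0.0421, reached without mouse 3.

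*Slc11a2* (ENSMUSG00000023030, chr15:100285776-100322953), the gene of DMT1, showed the largest rise of the 10. Vehicle cultures held 40.7, 44.4, 46.4 and 42.3 CPM, and bilirubin cultures 66.3, 70.8, 81.0 and 74.7 CPM. The lowest bilirubin culture lay well above the highest vehicle culture, and the 4 mice gave changes close to each other, between 0.67 and 0.82. The log2 fold change was 0.75 (SE 0.04, 1.68-fold, edgeR adjusted p = 4.64e-05), and the adjusted p stayed at or below 0.00308 in the 12 alternatives. On the TPM scale, which is scaled for transcript length, *Slc40a1* stood at between 1.54 and 2.64 times the level of *Slc11a2* in vehicle and at between 0.491 and 1.51 times in bilirubin. In 3 of the 4 bilirubin cultures *Slc11a2* was therefore the more abundant of the pair, and mouse 2 was the exception. These ratios include minor *Slc11a2* transcripts with few counts. Of these, ENSMUST00000154331 held up to 18.8% of the gene's TPM in a vehicle library and 24.6% in a bilirubin library. Its share of counts was at most 1.93 and 2.35%.

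*Slc11a1* (ENSMUSG00000026177, chr1:74414303-74425448), the phagosomal transporter gene, rose less and less evenly. Its vehicle values were 485, 501, 475 and 471 CPM, and its bilirubin values 510, 643, 641 and 620. Bilirubin cultures of mice 2 to 4 lay together, while that of mouse 1 was just above the vehicle range. The log2 fold change was 0.31 (SE 0.06, edgeR adjusted p = 0.0142), with 0.07 in mouse 1 and between 0.36 and 0.43 in the others. The call was lost without mouse 2, 3 or 4 (adjusted p = 0.0784, 0.126 and 0.102) and with an offset for transcript length (0.0549).

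The other import genes did not pass. *Tfrc* (chr16:32427556-32451612), the transferrin receptor, had 458, 439, 478 and 503 CPM in vehicle and 548, 384, 512 and 480 in bilirubin. It was higher with bilirubin in mice 1 and 3 and lower in mice 2 and 4, and the bilirubin spread (SD 70.5) was wider than the vehicle spread (SD 27.5). Its log2 fold change was 0.02 (SE 0.07, edgeR adjusted p = 0.895) and its sign turned with library size scaling, with the length offset and without mouse 1 or 3. *Steap3*, the endosomal ferrireductase gene, had 33.4, 30.5, 31.2 and 32.5 CPM in vehicle and 37.9, 32.7, 36.1 and 36.5 in bilirubin. All 4 mice were higher with bilirubin, with a log2 fold change of 0.17 (SE 0.04), and the adjusted p of 0.0623 missed the threshold; it was 0.0493 without mouse 1.

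Among storage genes, the 2 chains of ferritin did not pass and the gene that sends ferritin to the lysosome rose. *Ncoa4* (chr14:31881822-31902234) was almost the same in all vehicle cultures, at 109, 107, 109 and 108 CPM, and stood at 146, 134, 130 and 136 in bilirubin. No bilirubin culture came near the vehicle values. The log2 fold change was 0.33 (SE 0.04, edgeR adjusted p = 0.00158), it was positive in 4 of 4 mice, and it passed in all 12 alternatives (highest adjusted p 0.0177). *Timm23*, a gene of the mitochondrial import channel, overlaps *Ncoa4* on the opposite strand and had up to 3597 counts in a library, and whether counting used strand is not given in the sources used here.

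*Fth1*, the heavy chain with ferroxidase activity, had 17420, 19807, 20132 and 17151 CPM in vehicle and 15456, 24996, 22106 and 21758 in bilirubin. Mice 2, 3 and 4 were higher with bilirubin, by 0.34, 0.14 and 0.34, and mouse 1 was lower, at -0.17. The log2 fold change over the 4 was 0.16 (SE 0.08, edgeR adjusted p = 0.299). It passed without mouse 1 (0.27, adjusted p = 0.00125) and without the filter on low counts (adjusted p = 1.3e-04). *Ftl1*, the light chain that helps to nucleate the iron core, had 21270, 22567, 22528 and 21940 CPM in vehicle and 19381, 25141, 22623 and 24514 in bilirubin, a log2 fold change of 0.05 (SE 0.05, adjusted p = 0.677). For both chains the lowest bilirubin culture was that of mouse 1. The TPM ratio of heavy to light chain was between 0.860 and 0.975 in vehicle and between 0.871 and 1.08 in bilirubin, and these ranges overlapped. By mouse the ratio went from 0.901 to 0.871, 0.967 to 1.08, 0.975 to 1.08 and 0.860 to 0.982 in mice 1 to 4. It was higher with bilirubin in mice 2, 3 and 4 and lower in mouse 1, and this change was not tested. Processed pseudogenes share sequence with both chains, so their counts are uncertain: the pseudogene *Ftl1-ps1* alone was given between 2.29 and 2.73% as many counts as *Ftl1*.

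Neither sensor gene passed. *Aco1*, whose product is cytosolic aconitase when it holds an iron-sulfur cluster and IRP1 when it does not, had 78.1, 77.8, 73.4 and 73.5 CPM in vehicle and 73.9, 79.2, 75.6 and 73.8 in bilirubin. The ranges lay over each other, with an edgeR adjusted p of 0.995 and an SE of 0.04 on the log2 scale. *Ireb2*, whose product IRP2 is degraded when iron is plentiful, had 65.2, 62.3, 60.5 and 61.5 CPM in vehicle and 67.4, 63.2, 64.3 and 62.5 in bilirubin. Its log2 fold change was 0.05 (SE 0.04, adjusted p = 0.548), with each mouse slightly higher. Both sensors are known to be controlled at the protein, which RNA does not measure.

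**Figure D2:**
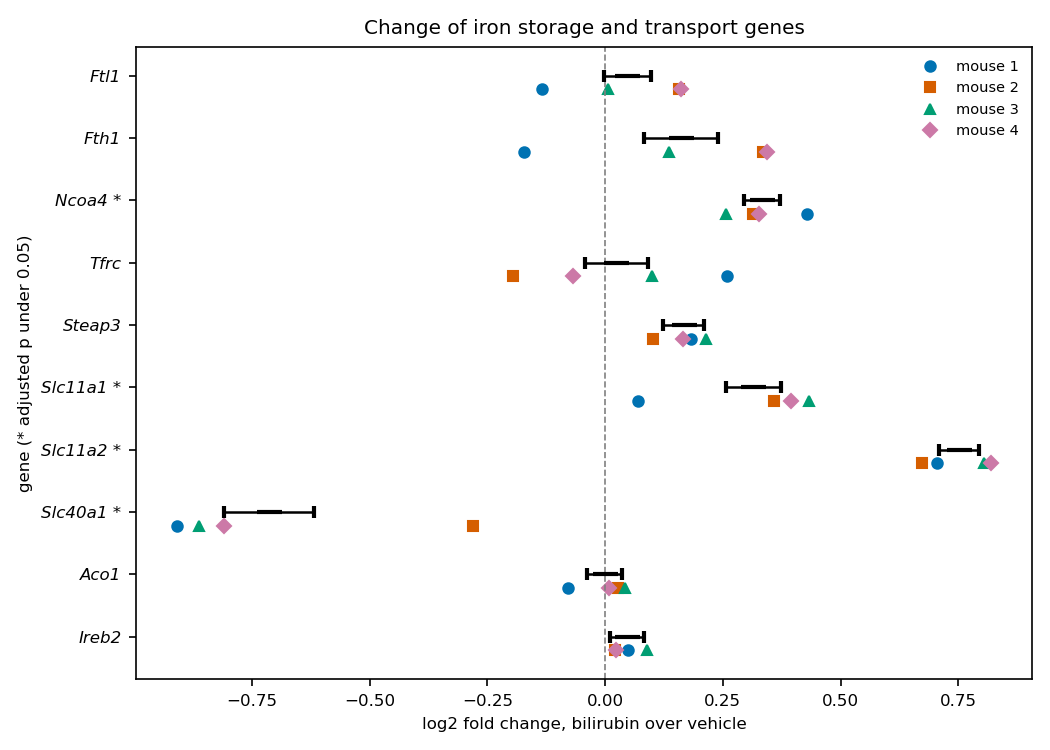
Log2 fold change of bilirubin over vehicle (x axis) for the 10 iron genes (y axis). The black bar is the edgeR estimate with its SE, coloured points are the single mice, and an asterisk marks an adjusted p under 0.05. *Slc11a2* at 0.75 and *Slc40a1* at -0.71 stand farthest from 0. Mouse 1 is the lowest for *Fth1*, *Ftl1*, *Slc11a1*, *Slc40a1* and *Aco1*, and the highest for *Ncoa4* and *Tfrc*.

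Set against the hairpins printed above, genes with a match at the same end of the mRNA did not all pass. Differences between these genes were not tested, and a block of translation through a 5′ UTR element is not measured by RNA levels. Of the 3 genes with a 5′ UTR match in a deposited transcript, *Slc40a1* fell and *Fth1* and *Ftl1* did not pass. Of the 2 with a 3′ UTR match, *Slc11a2* rose and *Tfrc* did not pass. *Ncoa4* and *Slc11a1*, which also rose, had no match in the UTRs of any annotated coding transcript.

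*Slc11a2* makes transcripts that end with and without the element, and these were measured apart. The transcript that contains the hairpin (ENSMUST00000138843) stood at 4.03, 4.71, 4.30 and 4.26 TPM in vehicle and at 8.56, 7.16, 6.76 and 7.61 in bilirubin. The transcript without it (ENSMUST00000023774) stood at 16.0, 16.8, 17.4 and 16.6 TPM in vehicle and at 23.05, 25.9, 30.7 and 25.6 in bilirubin. For both, all bilirubin cultures lay above all vehicle cultures. The log2 fold changes were 0.84 (SE 0.10) and 0.69 (SE 0.06), yet neither passed after adjustment over 38206 transcripts (edgeR adjusted p = 0.108 and 0.0775), and in that test 0.0366% of transcripts passed (0.0262% higher, 0.0105% lower). Both passed with limma-voom (0.0353 and 0.0219; 0.751% of all transcripts passed there) and without the mouse in the model (0.0102 and 0.0299; 0.55% of all), while across the other analyses the adjusted p reached 0.649 and 0.544. The transcript with the hairpin made up between 19.9 and 21.8% of the TPM of the pair in vehicle and between 18.0 and 27.1% in bilirubin, with mouse 1 the highest and mouse 3 the lowest, so no common shift between the 2 forms was seen.

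**Figure D3:**
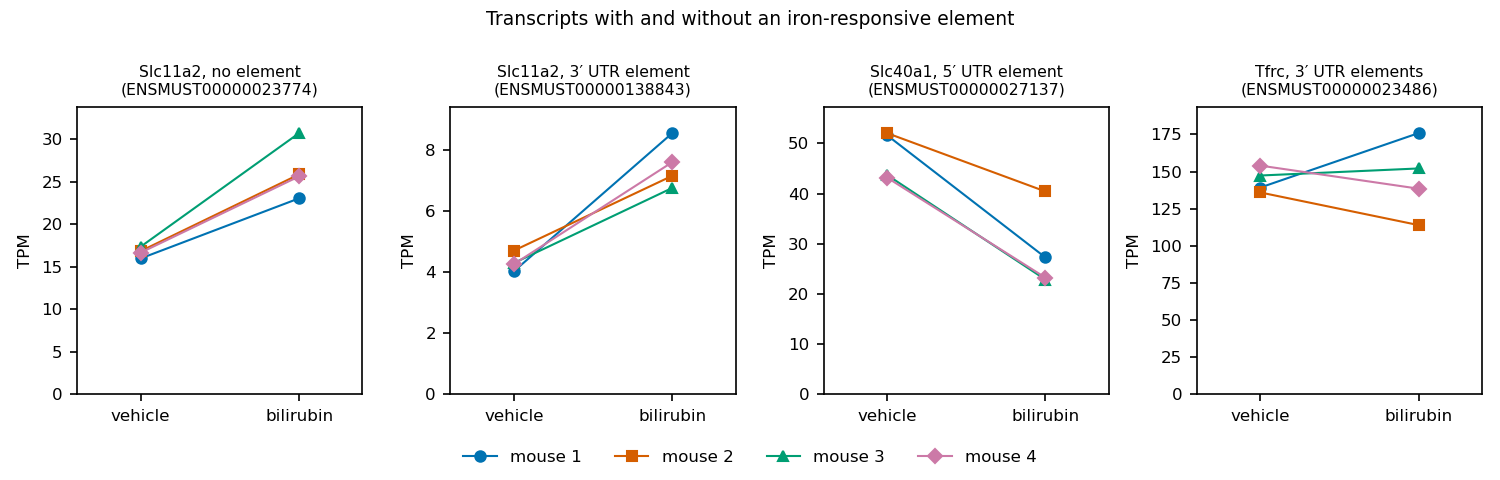
TPM (y axis, from 0) of 4 transcripts in vehicle and bilirubin cultures, with a line for each of 4 mice: *Slc11a2* without and with the iron-responsive element, and the main transcripts of *Slc40a1* and *Tfrc*. Both *Slc11a2* transcripts lie higher with bilirubin in each mouse and the *Slc40a1* transcript lower, while the *Tfrc* lines cross.

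The main *Slc40a1* transcript (ENSMUST00000027137), which holds the 5′ UTR hairpin, carried between 92.8 and 95.7% of the gene's counts in every library. Its level was 51.6, 52.1, 43.7 and 43.2 TPM in vehicle and 27.2, 40.4, 22.8 and 23.2 in bilirubin, with a log2 fold change of -0.74 (SE 0.12, edgeR adjusted p = 0.200). Of the 74 transcripts of the 10 genes, 45 were tested and 0 passed in edgeR, 9 had an unadjusted p under 0.05 (7.54% of all tested transcripts did), and 2 passed with limma-voom (0.751% of all). Transcript estimates divide shared reads among forms and are less certain than the gene counts.

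Other genes of iron and heme handling were read from a list of 68, of which 52 were expressed enough to be tested. Of these, 7 rose and 5 fell (23.1%, against 7.53% of all tested genes), and their median log2 fold change was 0.01. The list was written with earlier results of these data known, so its share is a description and not a test of enrichment. Of the heme degradation genes *Hmox1*, *Hmox2*, *Blvra* and *Blvrb*, only *Blvrb* passed. *Hmox1*, the heme oxygenase gene, had 2029, 2494, 2340 and 1848 CPM in vehicle and 1020, 3003, 2051 and 2065 in bilirubin. The bilirubin culture of mouse 1 was the lowest of the 8 and that of mouse 2 the highest, and the log2 fold change was -0.18 (SE 0.18, edgeR adjusted p = 0.634). *Blvrb*, the flavin and biliverdin reductase gene, rose by 0.35 (SE 0.04, adjusted p = 0.00122). *Blvra*, the main biliverdin reductase gene, was at -0.04 (adjusted p = 0.575). *Alas1*, the first enzyme of heme synthesis, rose by 0.33 (adjusted p = 0.00134). Of the 16 genes tested in heme transport and turnover only *Blvrb* and *Alas1* passed (12.5%, against 7.53% of all tested genes).

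The largest changes of the list were in genes of secreted proteins that bind iron carriers or hemoglobin. *Hp*, which encodes haptoglobin, the hemoglobin-binding plasma protein, went from 0.771 to 14.0 CPM (log2 fold change 4.17, SE 0.15, edgeR adjusted p = 1.27e-05). *Lcn2*, whose product captures bacterial siderophores, had 6, 1, 4 and 3 counts in the vehicle libraries and 88, 66, 178 and 136 in bilirubin (adjusted p = 7.58e-05). *Trf*, the transferrin gene, fell from 41.6 to 29.3 CPM (-0.51, SE 0.06, adjusted p = 0.00141), and *Lrp1*, which encodes the receptor of hemopexin-bound heme, fell from 4034 to 3338 CPM (-0.28, SE 0.04, adjusted p = 0.00305). The metal importer gene *Slc39a8* fell by 0.24 (adjusted p = 0.0298), and its relative *Slc39a14* was at -0.21 (adjusted p = 0.0926). *Cd163*, the receptor for haptoglobin-bound hemoglobin, stood at 1.05 CPM in vehicle and 0.799 in bilirubin (adjusted p = 0.555).

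Within the hepcidin pathway, which sets ferroportin protein in the body, *Hamp* (hepcidin) and its regulators *Hjv*, *Bmp6* and *Tmprss6* had 0 counts in all 8 libraries. *Hfe* fell by 0.29 (edgeR adjusted p = 0.0214), with groups that overlapped, and its partner *B2m* rose by 0.33 (adjusted p = 0.00443). The ferroxidase gene *Heph* had at most 12 counts in a library. In iron regulation, *Epas1*, which encodes HIF-2α, fell from 22.7 to 14.0 CPM (-0.73, SE 0.11, adjusted p = 0.00471), while *Hif1a* was at 0.17 (adjusted p = 0.167). *Nfe2l2*, whose product NRF2 activates ferritin genes and *Slc40a1*, rose by 0.19 (adjusted p = 0.0262), and *Bach1*, their repressor, was at 0.13 (adjusted p = 0.121). *Fbxl5*, which marks IRP2 for degradation, was at 0.15 (adjusted p = 0.130). Of 14 mitochondrial genes only *Slc25a37*, the iron importer mitoferrin-1, passed (7.14%, against 7.53% of all tested genes). It rose by 0.40 (SE 0.04, adjusted p = 9.36e-04). *Hfe*, *Nfe2l2* and *Slc39a8* each kept their call in 7 of the 12 alternatives. *Trf* and *Lrp1* kept theirs in 11, and lost it with the transcript length offset (log2 fold change -0.33, adjusted p = 0.234, and -0.23, adjusted p = 0.0880).

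**Figure D4:**
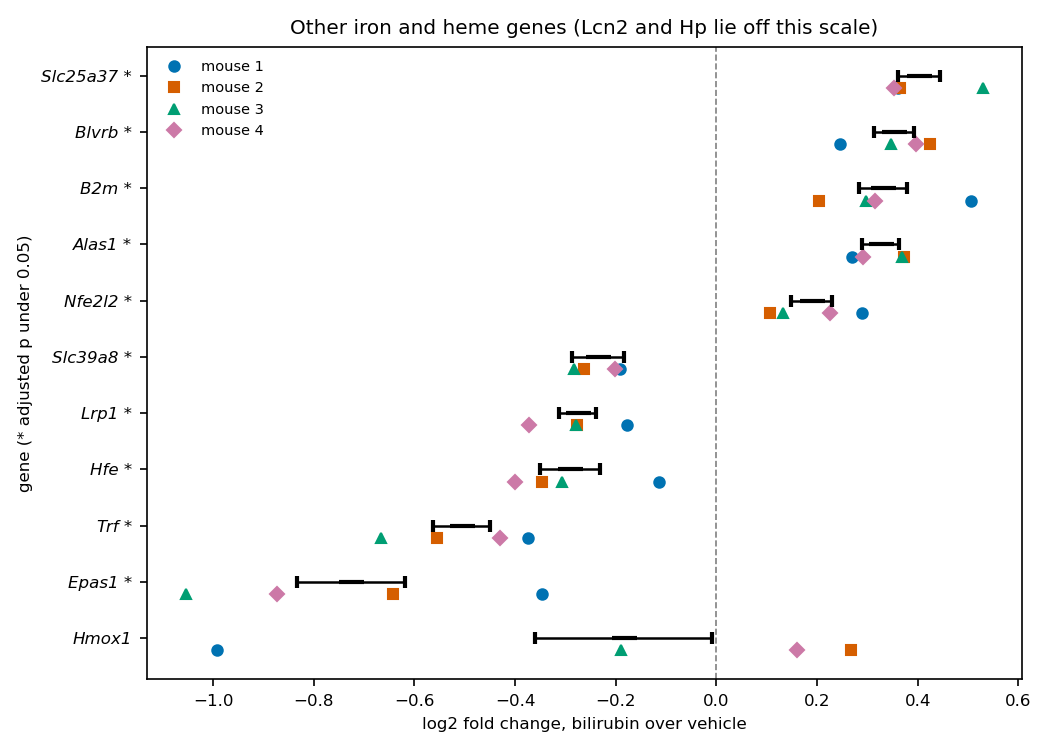
Log2 fold change of bilirubin over vehicle (x axis) for 10 further iron and heme genes that passed and for *Hmox1* (y axis), with the edgeR estimate and SE in black and single mice as coloured points. *Slc25a37* lies highest at 0.40 and *Epas1* lowest of those that passed at -0.73, while the *Hmox1* points lie on both sides of 0, with mouse 1 at -0.99.

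Mouse by mouse, *Hmox1* changed by -0.99, 0.27, -0.19 and 0.16 in mice 1 to 4, beside -0.17, 0.34, 0.14 and 0.34 for *Fth1* and -0.13, 0.16, 0.01 and 0.16 for *Ftl1*. *Slc48a1*, which carries heme out of the phagolysosome, changed by -0.14, 0.22, 0.17 and 0.30. Mouse 1 had the lowest change in all 4 of these genes. Over the 8 libraries with each mouse's mean removed, which leaves 4 independent differences, the genes whose log2 CPM ran most like *Slc40a1* were *Ercc1*, *Arap2* and *Atxn10* (each Pearson's r = 0.999, of 10906 genes). Those most like *Tfrc* were *Kdr*, *Socs4* and *Zfp217* (0.994, 0.991 and 0.991), and those most like *Fth1* were *Rpl15-ps3*, *Pkp2* and *Slc25a17* (0.9996, 0.999 and 0.998). With 4 differences and so many genes, these correlations are descriptions only.

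Depth was 37747315 to 47071714 counts for vehicle libraries and 34142781 to 41054034 for bilirubin libraries. All 8 macrophage markers were above 1 CPM. Their summed level, which weights the most abundant markers, was 24210 to 24511 CPM in vehicle and 28574 to 30555 in bilirubin. By gene, 3 of them rose, 1 fell and 4 did not pass, with a median log2 fold change of -0.08. The 7 erythroid markers in the table, from a cell that is rich in *Tfrc* and *Slc25a37*, were each under 1 CPM in all libraries (summed level at most 0.305 CPM). The summed level of 8 neutrophil markers, from a cell that makes *Lcn2* and *Hp*, was 11.5 to 14.1 CPM in vehicle and 19.5 to 32.6 in bilirubin, with *S100a8* the only one above 1 CPM, and the part of these cells in the rise of *Lcn2* and *Hp* was not tested. Of 12 proliferation genes, which can move with *Tfrc*, 0 passed in edgeR (median log2 fold change 0.04), against 7.53% of all tested genes.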

How the data were processed

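Per the labels and the study's methods, poly(A) libraries were trimmed with Trim Galore 0.6.7 and Cutadapt 3.4, aligned with STAR 2.7.9a to GRCm39, quantified with Salmon 1.10.1 and summed per gene with tximport. The authors deposited unnormalized estimated counts (expected counts) per gene, and per library the estimated counts, TPM and other transcript columns, including effective length. Salmon shares ambiguous reads among transcripts, which bears most on ferritin and its pseudogenes.

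Estimated counts were rounded, scaled by TMM and tested with edgeR 4.0.16 in R 4.3.3 (filterByExpr with at least 10 counts and 15 in total, quasi-likelihood test, mouse in the model as in the study's methods). P-values were Benjamini-Hochberg adjusted over all tested genes, threshold 0.05. The SE of a log2 fold change was derived as its absolute value divided by the square root of the test's F statistic. Counting error alone was 0.103 to 2.73% of the level of the 10 genes in a library. It was above the SD of the vehicle cultures for *Ncoa4* (1.47%, against an SD of 0.596%). P-values measure the spread in 4 mice. A prior count of 2 was added for log2 CPM. The alternatives left the mouse out of the model, used DESeq2 1.42.0, limma-voom 3.58.1, 2 other scalings, 2 other filters or a transcript length offset, or omitted single mice. The procedure was tested on simulated data. The cultures are paired because each mouse gave both. The correlation of their deviations from the group means was 0.108, 0.134, 0.108 and -0.005 for mice 1 to 4. The highest correlation of each vehicle culture with a bilirubin culture of another mouse was -0.032, -0.022, 0.075 and 0.062. For mouse 4 this was above the value of its own pair.

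The genes, lists and hairpin rule were chosen with earlier results of these data known. The text names the 10 genes, further iron genes past the threshold (at most 12, by smallest adjusted p) with *Hmox1*, and for *Slc40a1*, *Tfrc* and *Fth1* the 3 most correlated genes among those averaging at least 1 on the log2 CPM scale. Other list genes, the pseudogene, *Timm23* and *S100a8* are named as context and were chosen after their values were seen. *Tf* of the list is *Trf* in the table. Gene positions and UTRs are from GENCODE on GRCm39, a later annotation than the authors'.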

Additional observations from a re-analysis of the deposited data

Results flagged for a closer look

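The *Slc40a1* level of mouse 2 in bilirubin, 93.1 CPM, stood apart from the other bilirubin cultures. Its gap to the next culture was 0.847 of the group's range, above Dixon's critical value for 4 samples. It was the 1 of 20 gene and group combinations in which a culture stood apart in this way, and chance alone gives about 1 in 20. Without mouse 2 the log2 fold change of *Slc40a1* was -0.86 (edgeR adjusted p = 2.55e-04), against -0.71 with all 4 mice.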

How the results depend on the processing

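Of the 10 genes, 4 passed, and the number was between 3 and 6 when 1 mouse was left out, with *Fth1* and *Steap3* added without mouse 1 and *Slc11a1* lost without any other mouse. It was 3 with the transcript length offset, 5 without the filter and 4 in the others. The signs of *Tfrc* and *Aco1* turned. *Tfrc* (0.02) was -0.0026 with library size alone, -0.021 with the length offset, and between -0.057 and 0.096 with 1 mouse left out (-0.057 without mouse 1, -0.0029 without mouse 3). *Aco1* (-0.00085) was between -0.017 and 0.023 with 1 mouse left out (0.023 without mouse 1). Over all genes 1033 passed, against 1692 without the filter, 579 with the length offset, 686 without the replicate block (4 of the 10 genes) and 377 to 1910 with 1 mouse left out (1910 without mouse 1, 634 without mouse 2, 377 without mouse 3, 441 without mouse 4). The share of calls that were higher was 59.6%, and 48.7% with library size alone. The 12 further iron genes became 7 with the length offset, 17 without the filter and 9 to 16 with 1 mouse left out. Member transcripts passed in 0 cases, 2 with limma-voom and 3 without the replicate block, the third a transcript of *Ncoa4*. DESeq2 on transcripts is left out of these numbers because it failed on simulated data, and the length offset was not run on transcripts. The causes of these changes were not tested.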
